A study of Mus spretus with 8 samples.

Results

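The genes described here encode the transporters, kinases and enzymes that carry glucose and fructose through glycolysis, gluconeogenesis and glycogen in the liver. Of 43 genes chosen by name, 40 were matched by symbol to a probe of the array, out of 22471 named genes in all, and each was represented by its probe with the highest mean over the 8 arrays. Gpi1, Pfkfb1 and Eno1 were not matched. Liver RNA of male SPRET/EiJ mice, an inbred strain of the species Mus spretus, was hybridised to 1-colour Cy3 arrays. The DDE group had 4 mice, 7 weeks old at the start, that for 30 days ate Harlan feed to which corn oil with p,p'-DDE (450 mg/kg) had been added, and the control group had 4 mice, whose age is not given in the sources used here, on the same feed with corn oil only. p,p'-DDE is the long-lived breakdown product of the insecticide DDT. The p-values below measure the spread between these mice.

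Glycolysis splits glucose into pyruvate in the cytosol, and its direction in hepatocytes is set at a few steps that have separate forward and reverse enzymes. After a meal the liver takes up glucose and stores it as glycogen, and between meals it breaks glycogen down and makes new glucose from lactate, glycerol and amino acids. Fructose enters lower down, past the phosphofructokinase step, through ketohexokinase, aldolase and triokinase.

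All values are the deposited log2 signals, so a difference of 1 is a doubling. Levels of different genes are not compared, because each probe binds with its own strength. The scale ends at 16, and values within 0.3 of that end were counted as near the top, since the median within-group SD was 0.37 for probes with a mean from 13 to 14 and 0.047 for the 80 probes with a mean within 0.1 of the end. The background level of the arrays, set from probes of olfactory and vomeronasal receptors, lay between 7.55 and 7.81. Of the 40 genes, 31 were above background in all 8 livers, Pfkp and Eno2 in none, and Gapdh, Ldha, Khk and Fbp1 had values near the top. Patches in which neighbouring spots deviated together are called stained here, a name given from the values alone. Such stained patches covered from 0.521% to 9.50% of an array, and 29 of the 40 genes had no stained spot. The hepatocyte markers Alb, Apoa2 and Serpina1c were at 15.89 or higher in every liver.

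Tkfc and Pfkl rose after DDE, Eno3 fell, and 37 of the 40 genes did not pass the test (limma, p adjusted over all 42957 probes, threshold 0.05). On the whole array 2.34% of probes rose and 0.661% fell. The 2 that rose are to be read against a background in which 2.58% of all named genes rose, and the 1 that fell against 0.774%. Among genes above background on 4 or more arrays the shares were 5.2% and 1.54%, so these counts are close to that background. The control and DDE values did not overlap in 12 genes that were higher and 4 that were lower after DDE, while 8.48% of all named genes did not overlap in the higher direction and 4.06% in the lower. Of the 33 described genes above background on 4 or more arrays, 10 did not overlap in the higher direction and 4 in the lower. The shares over all named genes so filtered were 14.6% and 5.98%. The median difference was 0.28 over the 40 genes and 0.02 over all named genes. With only genes above background on 4 or more arrays it was 0.345 over 33 of the 40 and 0.10 over all such named genes. By branch, over all measured genes, the median was 0.75 in upper glycolysis, 0.76 for the pair of fructose enzymes, 0.32 in glycogen, 0.31 in glucose entry, 0.18 in lower glycolysis and 0.00 in gluconeogenesis. These branch medians include genes near background (among them Hk2, Pfkfb2 and Pkm) and near the top (Gapdh, Ldha, Khk and Fbp1). That of upper glycolysis is the value of Pfkfb2, at background in all controls. They were not taken without such genes, so the branches are not ranked by them.

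**Figure D1:**
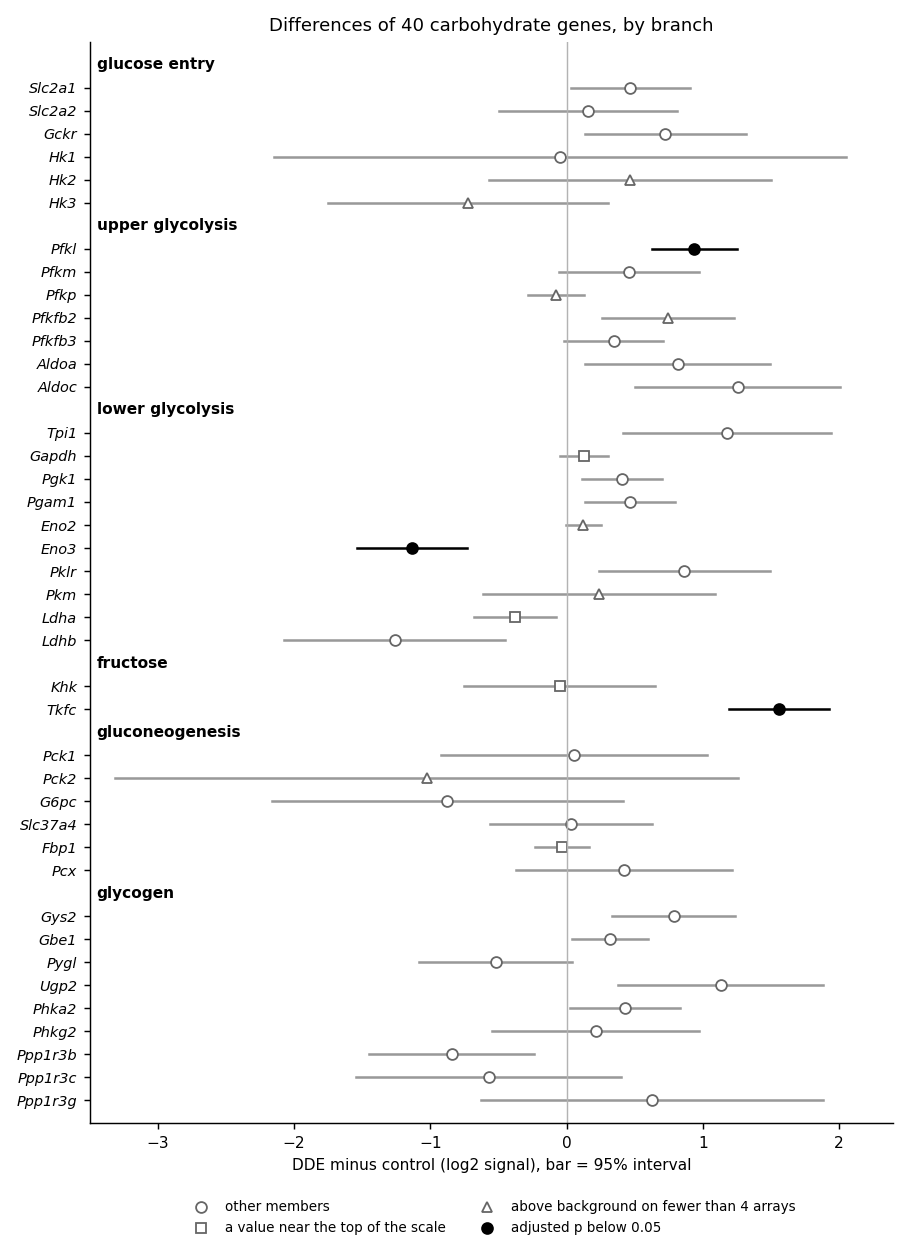
Differences (DDE minus control, log2 signal) of the 40 genes with their 95% intervals from limma, 4 livers per group, in 6 branches. Filled points passed the test (Pfkl, Eno3 and Tkfc), squares mark genes with a value near the top of the scale and triangles genes above background on fewer than 4 arrays; most points of upper glycolysis lie right of 0 and those of gluconeogenesis lie on both sides.

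Glucose crosses the hepatocyte membrane through GLUT2 and is trapped by phosphorylation. Slc2a2, the gene of GLUT2, had 11.60, 11.63, 10.90 and 10.59 in controls 1 to 4 and 11.31, 10.93, 11.66 and 11.45 in DDE livers 1 to 4. The groups overlapped, and the difference was 0.16 with a 95% interval from -0.50 to 0.81 (limma adjusted p = 0.79). Gckr encodes the protein that holds glucokinase inactive in the nucleus. Its signal was 12.83, 13.07, 11.84 and 12.56 in controls and 13.29, 13.29, 13.19 and 13.43 after DDE. Every DDE liver was above every control, with the DDE values much closer together than the controls (SD 0.099 against 0.53), but the difference of 0.72 did not pass (adjusted p = 0.217). Slc2a1, the widely expressed GLUT1, had 8.71 ± 0.33 in controls and 9.18 ± 0.22 after DDE (SD, n = 4, limma adjusted p = 0.294).

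The hexokinases other than glucokinase are low in hepatocytes, and their probes gave little usable signal. Hk2 was above background in 0 controls and 1 DDE liver, and Hk3 in 2 controls and 0 DDE livers. Hk1 ranged from 8.01 to 9.09 in controls and from 6.02 in DDE 4 to 10.67 in DDE 3, the latter on a stained spot. This DDE spread (SD 1.90) was the widest of any of the 33 genes above background on 4 or more arrays. The difference of Hk1 was -0.05 with all spots and -0.82 without stained spots, and it did not pass either way (adjusted p = 0.984 and 0.613).

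Phosphofructokinase commits sugar to glycolysis, and mouse liver uses mainly the product of Pfkl. Pfkl had 8.84, 8.65, 9.01 and 8.59 in controls 1 to 4 and 9.73, 9.91, 9.44 and 9.76 in DDE livers 1 to 4. No DDE liver reached down to the highest control, and the spread was alike in both groups (SD 0.19 and 0.20). Pfkl rose 1.92-fold, a log2 difference of 0.94 ± 0.13 (SE, limma adjusted p = 0.0187). It passed in 5 of the 8 fits that left out 1 liver and lost the call without DDE 1 (adjusted p = 0.0577), DDE 2 (0.0606) or control 2 (0.0628), with the difference still between 0.87 and 0.93 there.

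The other phosphofructokinase genes did not pass. Pfkm, the muscle form, had 10 probes whose differences ran from -0.40 to 0.64 with a median of 0.18. In 7 of these the mean was higher after DDE and in 3 it was lower, and 0 of the 10 passed (limma), and unadjusted p-values under 0.05 were found for 1 higher and 1 lower probe. With the median of its probes Pfkm was 9.14, 9.25, 8.65 and 8.97 in controls and 8.99, 9.21, 9.09 and 9.21 after DDE (difference 0.12, adjusted p = 0.671). Pfkp, the platelet form, stayed at background in all 8 livers.

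Pfkfb genes make and remove fructose 2,6-bisphosphate, the main activator of phosphofructokinase. Pfkfb2 had 7.37, 7.27, 7.66 and 7.27 in controls, all at background, and 7.95, 8.13, 8.70 and 7.77 after DDE, with 3 of 4 above it. The groups did not overlap, but the difference of 0.74 did not pass (adjusted p = 0.123), and it was 0.56 without stained spots because the highest value, DDE 3, lay in a stained patch. Pfkfb3 went from 7.97 ± 0.057 to 8.31 ± 0.32 (difference 0.34, adjusted p = 0.366).

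Aldolase splits fructose 1,6-bisphosphate into 3-carbon sugars. Aldoc, the form best known from brain, had 11.29, 10.66, 10.46 and 10.33 in controls and 11.51, 12.13, 12.64 and 11.49 after DDE. The lowest DDE liver lay just above the highest control, and the difference was 1.26 ± 0.32 (SE, limma adjusted p = 0.0976). Aldoa, the muscle and red cell form, had 13.68, 12.71, 12.67 and 13.34 in controls and 13.35, 14.01, 14.24 and 14.06 after DDE. Here control 1 was above DDE 1, and the difference of 0.81 did not pass (adjusted p = 0.231). For both genes the highest value, DDE 3, was on a stained spot, and the differences without stained spots were 1.02 and 0.71.

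**Figure D2:**
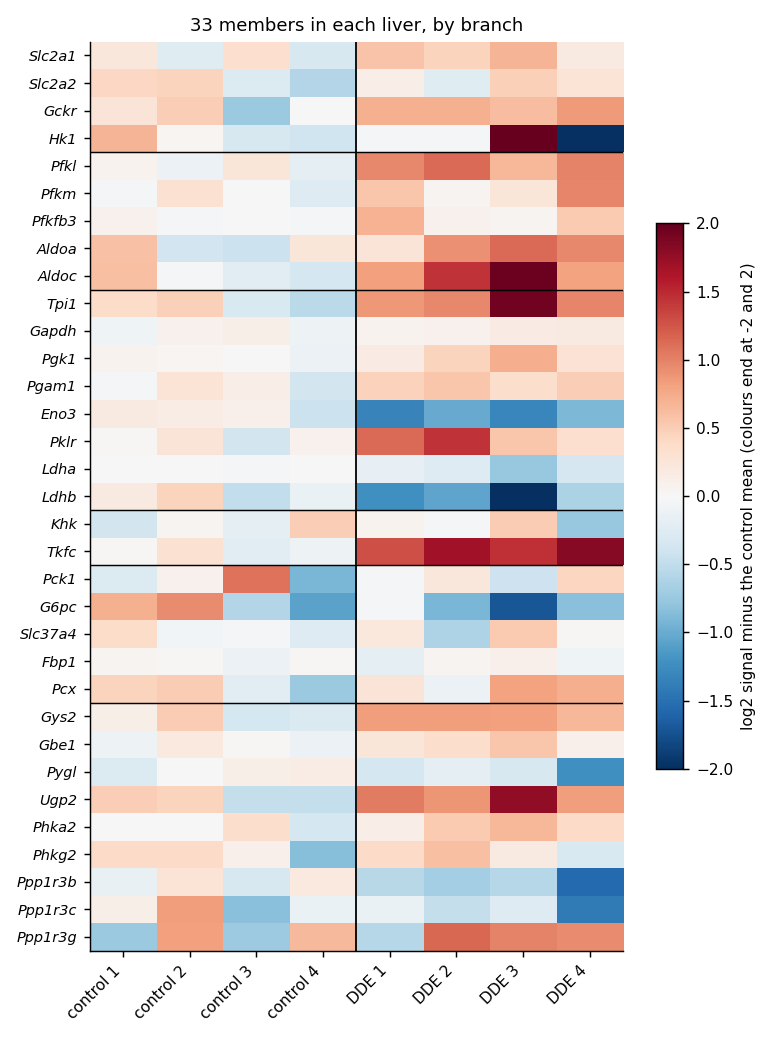
Log2 signal of 33 genes above background on 4 or more arrays in each of the 8 livers, as the difference from the gene's control mean, with branches separated by horizontal lines. Tkfc and Pfkl are red and Eno3 is blue in all 4 DDE livers, while G6pc and Pck1 differ as much among the controls as between the groups.

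The later steps of glycolysis turn 3-carbon sugars into pyruvate and lactate. Tpi1, triosephosphate isomerase, had 13.72, 13.82, 13.05 and 12.81 in controls and 14.21, 14.31, 15.28 and 14.32 after DDE at its brighter probe. All DDE livers were above the controls, with DDE 3 apart from the other three and on a stained spot, and the difference of 1.18 did not pass (adjusted p = 0.12). The other Tpi1 probe differed by 0.41, with overlapping groups. Pgk1, which makes the first ATP of the pathway, went from 13.45 ± 0.082 to 13.86 ± 0.24 and Pgam1, the mutase that follows it, from 13.50 ± 0.28 to 13.97 ± 0.084. In both genes the groups did not overlap, with differences of 0.41 and 0.47 that did not pass (limma adjusted p = 0.16 and 0.149).

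Gapdh, the enzyme between these steps and a common reference gene for liver RNA, gave different answers at different probes. Its brightest probe had 15.71, 15.88, 15.91 and 15.69 in controls and 15.87, 15.89, 15.96 and 15.98 after DDE, so 3 control and 4 DDE values were near the top of the scale. At that probe the difference was 0.13 (limma adjusted p = 0.515), and with a control mean of 15.80 the end of the scale at 16 limits any increase.

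Of the 7 Gapdh probes, 4 rose and all 7 had a higher mean after DDE, with a median difference of 0.97. The probe with the smallest p had 12.37, 12.39, 12.07 and 11.98 in controls and 13.64, 13.76, 13.48 and 13.38 after DDE. The gap between the groups was wider than the range within either, a difference of 1.36 (limma adjusted p = 0.00703). A brighter probe had 14.45, 14.32, 14.34 and 14.44 in controls and 15.42, 15.56, 15.30 and 15.15 after DDE, below the near-top range, and rose by 0.97 (adjusted p = 0.00755). The other probes that rose did so by 1.30 (adjusted p = 0.0184) and by 0.86 with 3 DDE values near the top, that of DDE 3 on a stained spot (adjusted p = 0.0328). Another probe differed by 1.64 without overlap and without passing (adjusted p = 0.0628), and the remaining one, with DDE 2 on a stained spot, differed by 0.24. Gapdh passed with the mean of its probes (0.93, adjusted p = 0.0192) and with their median (1.01, adjusted p = 0.0315). The mouse genome holds many processed copies of Gapdh, and which transcripts each probe binds is not given in the sources used here.

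**Figure D3:**
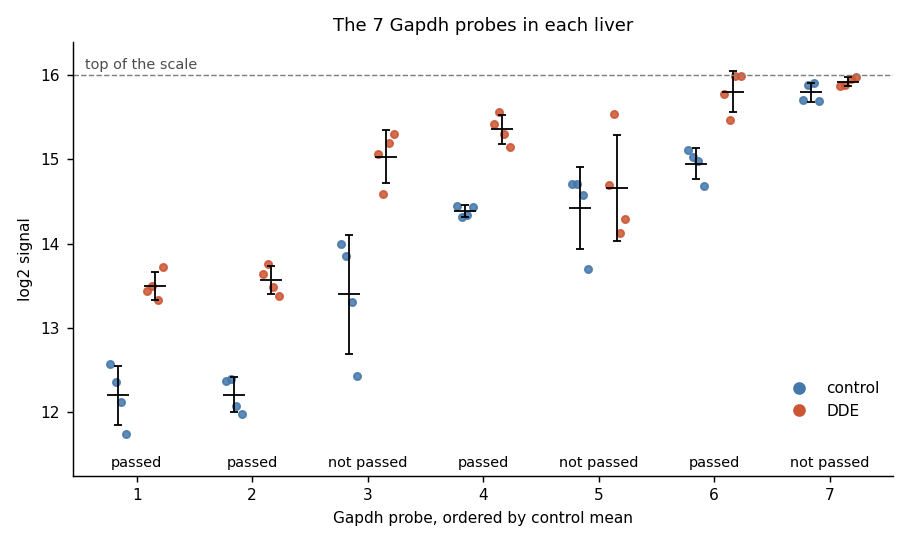
Log2 signal of the 7 Gapdh probes in each liver (points), with the mean and SD of each group of 4 (black), ordered by control mean; the dashed line is the top of the scale at 16. The DDE points lie above the controls at probes 1, 2, 3, 4 and 6, and at probe 7 both groups are pressed against the top.

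Pyruvate kinase ends the pathway, and Pklr is its liver form. Pklr had 8.96, 9.19, 8.56 and 9.02 in controls and 10.07, 10.37, 9.48 and 9.27 after DDE. The lowest DDE liver, DDE 4, was only slightly above the highest control, while DDE 1 and DDE 2 were clearly above it, and the difference of 0.86 did not pass (adjusted p = 0.159). Pkm, the form of most other tissues, was above background only in DDE 4, where its spot was stained.

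Lactate dehydrogenase interconverts pyruvate and lactate. Ldhb, the heart-type subunit, had 10.60, 10.87, 9.93 and 10.29 in controls and 9.20, 9.36, 8.29 and 9.79 after DDE. The groups did not overlap, although DDE 4 was close to control 3, and the difference of -1.26 did not pass (adjusted p = 0.118). Ldha, the main subunit in liver, had 15.97, 15.98, 15.95 and 15.97 in controls at its brightest probe, all near the top, and 15.81, 15.71, 15.21 and 15.63 after DDE. Its 3 probes differed by -0.38, -0.44 and -0.78, and 0 of the 3 passed (limma, lowest adjusted p = 0.182), with 2 lower at an unadjusted p under 0.05.

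Enolase converts 2-phosphoglycerate to phosphoenolpyruvate, and Eno3 encodes beta-enolase, the form of skeletal muscle that is also made in liver. Eno3 had 11.27, 11.24, 11.20 and 10.66 in controls 1 to 4 and 9.76, 10.09, 9.79 and 10.20 in DDE livers 1 to 4. All DDE livers were below all controls, with control 4 the lowest of its group, and Eno3 fell 2.19-fold, a log2 difference of -1.13 ± 0.17 (SE, limma adjusted p = 0.0226). The call was kept without control 4 or without DDE 4. It was lost without control 1 (adjusted p = 0.0552), control 2 (0.0735), control 3 (0.0667), DDE 1 (0.0663), DDE 2 (0.0654) or DDE 3 (0.065), with differences from -1.18 to -1.07 in those 6 fits. Eno2, the neuronal form, stayed at background. Eno1b, a copy of the alpha-enolase gene named here after its values were seen, had 2 probes with differences of 0.14 and 0.66 that did not pass (adjusted p = 0.808 and 0.498).

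Skeletal muscle markers were set beside Eno3. Of 5 such markers (Ckm, Acta1, Myh4, Tnnt3 and Mylpf) 0 passed (limma, with 1 lower at an unadjusted p under 0.05) and all 5 had lower means after DDE, with Mylpf never above background. Their summed signal was 14.02, 14.43, 14.09 and 14.28 in controls and 12.08, 13.32, 12.80 and 14.21 in DDE livers 1 to 4. The 4 DDE livers stood in the same order for the markers and for Eno3, and the 4 controls did not. Stained spots among the markers were those of Myh4 in control 4, Tnnt3 in controls 3 and 4 and Ckm in DDE 4. In DDE 4 the markers were within the control range while Eno3, at 10.20, was still below the lowest control at 10.66. Pgam2 and Pygm, muscle forms of phosphoglycerate mutase and glycogen phosphorylase that were picked after their values were seen, differed by -0.90 and -0.76 without passing (adjusted p = 0.101 and 0.297). The Pygm values of controls 3 and 4 were on stained spots. Aldoa and Pfkm, muscle forms described above, differed by 0.81 and, at the median of the Pfkm probes, 0.12, also without passing. The single Pfkm probes ran from -0.40, without overlap, to 0.64. Slc2a4, Gys1 and Phka1, further muscle forms chosen after their values were seen, differed by -2.305, -0.735 and -0.11 without passing. The Slc2a4 values of control 3 and DDE 1 were on stained spots. The part of muscle RNA in the Eno3 result was not tested further. In whole tissue, fewer cells of a type and less RNA per cell cannot be told apart.

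**Figure D4:**
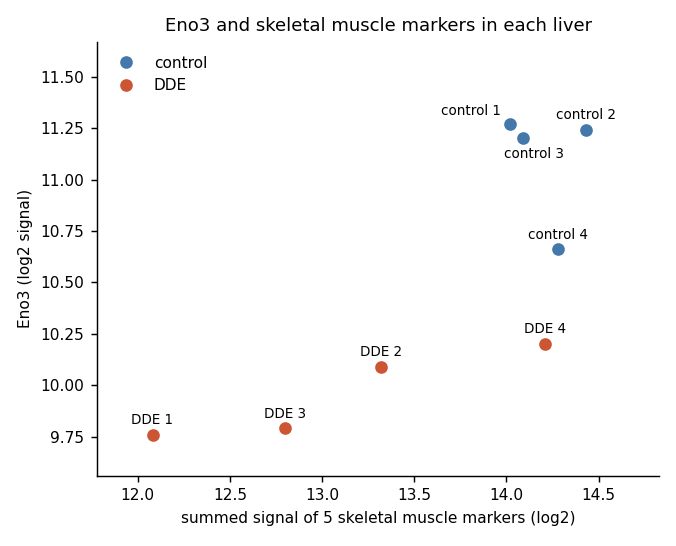
Eno3 (log2 signal) against the summed log2 signal of 5 skeletal muscle markers in each of the 8 livers. The controls sit between 14.02 and 14.43 on the marker axis with Eno3 at 10.66 or higher, and DDE 4 has a marker sum of 14.21 with Eno3 at 10.20.

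Markers of other cell types were compared as well. Over 10 lists, 0 of 47 markers passed (limma). An unadjusted p under 0.05 was seen for 5 higher and 3 lower markers, against 11.4% and 4.57% of all named genes. The summed signal of 5 stellate cell and fibroblast markers was 13.33 to 13.62 in controls and 12.49 to 13.22 after DDE. This sum rests mainly on Dcn, with a control mean of 13.18 against 9.63 for Col3a1, the next marker. Dcn and Acta2 were lower (differences -0.96 and -0.15) and Col1a1, Col3a1 and Lrat were higher (0.62, 1.07 and 0.34), none past the threshold. The sums overlapped between the groups for Kupffer cell, neutrophil, lymphocyte, endothelial, cholangiocyte, erythroid and adipocyte markers. For 4 cholangiocyte markers they were 9.62 to 13.76 in controls and 9.46 to 9.65 after DDE, with the highest control sums due to Sox9 in control 4 (13.68, on a stained spot) and Krt19 in control 1 (12.12). The hepatocyte sum overlapped too, but it rests on Alb, Ttr, Apoa2 and Serpina1c near the top of the scale and could not show a rise.

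In the fructose branch the 2 genes differed. Ketohexokinase, from Khk, traps fructose as fructose 1-phosphate, and triokinase, from Tkfc, phosphorylates the glyceraldehyde that aldolase then releases. Tkfc had 10.69, 10.97, 10.45 and 10.56 in controls 1 to 4 and 11.95, 12.34, 12.13 and 12.49 in DDE livers 1 to 4. The lowest DDE liver was 0.98 above the highest control, the widest such gap of the 40 genes at their brightest probes, next to 0.99 at a dimmer probe of Gapdh. Tkfc rose 2.95-fold, a log2 difference of 1.56 ± 0.16 (SE, limma adjusted p = 0.00755), and passed in all 8 fits that left out 1 liver and, at 1.49, without its stained spot in control 3. With the replicate number of the labels fitted as a block, Tkfc did not pass (limma adjusted p = 0.0657), and neither did Pfkl or Eno3. Khk had 15.12, 15.54, 15.30 and 15.98 in controls and 15.56, 15.46, 16 and 14.72 after DDE. The groups overlapped with 1 value near the top in each, and the difference was -0.05 with an interval from -0.75 to 0.65 (adjusted p = 0.944).

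**Figure D5:**
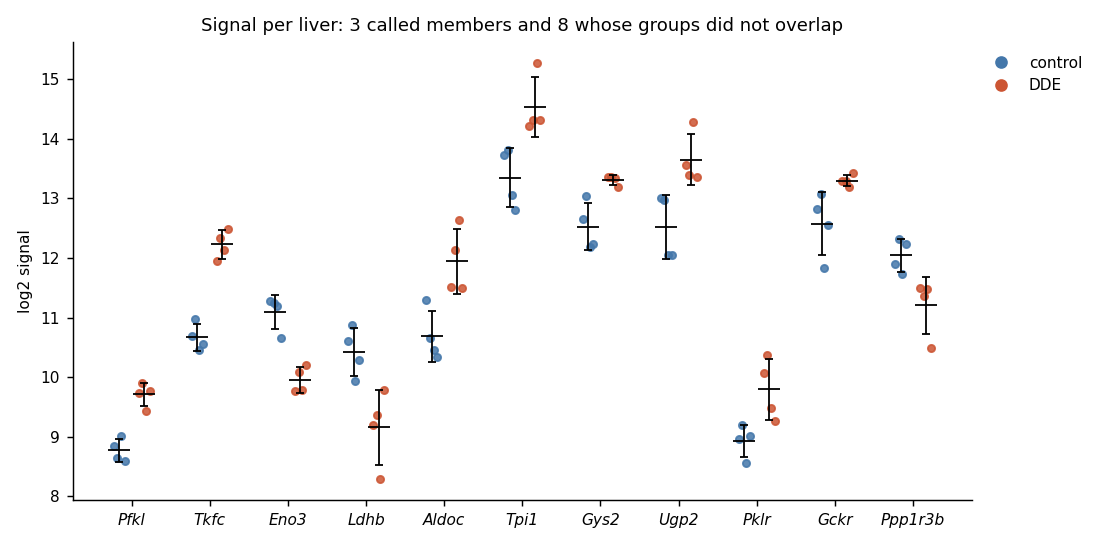
Log2 signal of 11 genes in each liver (points), with the mean and SD of each group of 4 (black). The first 3 genes passed the test, and in the other 8 the control and DDE points do not overlap but the adjusted p is above 0.05; levels of different genes are not comparable.

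Gluconeogenesis bypasses the one-way steps of glycolysis, and 0 of its 6 measured genes passed (limma), also at an unadjusted p under 0.05. Pck1, the cytosolic phosphoenolpyruvate carboxykinase that rises in fasting, had 12.95, 13.31, 14.30 and 12.31 in controls and 13.20, 13.44, 12.81 and 13.65 after DDE. The controls alone spanned more than the DDE livers, and the interval of the difference ran from -0.92 to 1.03. G6pc, the catalytic subunit that releases free glucose, had 15.04, 15.27, 13.74 and 13.25 in controls and 14.29, 13.41, 12.61 and 13.49 after DDE. Controls 1 and 2 were well above controls 3 and 4, which gave G6pc the widest control spread of the 33 genes (SD 0.98), and the difference of -0.88 had an interval from -2.16 to 0.41. Slc37a4, the transporter that brings glucose 6-phosphate to that enzyme, differed by 0.03 with an interval from -0.57 to 0.63.

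The entry and middle steps of the route were measured less well. Pcx, pyruvate carboxylase, had 14.59, 14.65, 13.92 and 13.40 in controls and 14.40, 14.03, 14.95 and 14.87 after DDE, a difference of 0.42 that was 0.05 without its stained spots in control 4 and DDE 3. Fbp1, fructose bisphosphatase, had 15.76 to 15.93 in controls and 15.67 to 15.97 after DDE, with 4 and 3 values near the top, so a change at this probe could be hidden. Pck2, the mitochondrial form, had 10 probes with 5 of 80 values above background. Its probe with the highest mean owes that place to 1 stained spot, with 11.39 in control 2 against 7.03 to 7.24 in the other controls. The median of the 10 probes was 7.19 to 7.34 in every liver.

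Glycogen is built from UDP-glucose by glycogen synthase and branching enzyme and broken down by phosphorylase. Gys2, the liver synthase, had 12.65, 13.04, 12.18 and 12.24 in controls and 13.36, 13.36, 13.35 and 13.19 after DDE. The DDE livers were nearly equal and all above the controls, and the difference was 0.79 ± 0.19 (SE, limma adjusted p = 0.0862). The other Gys2 probe had 10.10, 10.26, 9.89 and 9.17 in controls and 10.86, 11.35, 10.40 and 11.00 after DDE, also without overlap, and differed by 1.05 (adjusted p = 0.119). Gys2 passed in 2 of 21 alternative fits, without control 2 (adjusted p = 0.0407) and without dim probes (0.0461).

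Ugp2, which makes UDP-glucose, had 13.01, 12.97, 12.05 and 12.05 in controls and 13.56, 13.40, 14.29 and 13.36 after DDE. Its groups did not overlap at this probe and overlapped at the other one, with differences of 1.13 and 0.78 (limma adjusted p = 0.128 and 0.212). Gbe1, the branching enzyme, went from 10.97 ± 0.14 to 11.29 ± 0.19 (difference 0.32, adjusted p = 0.257).

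Breakdown and its control pointed in no single direction. Pygl, the liver phosphorylase, had 14.50, 14.79, 14.89 and 14.92 in controls and 14.42, 14.59, 14.46 and 13.55 after DDE. DDE 4 was the lowest by far, the values of controls 3 and 4 were on stained spots, and the groups overlapped. The difference of -0.52 did not pass (limma adjusted p = 0.381), and it was -0.285 without DDE 4 and -0.39 without stained spots. Phka2 and Phkg2, liver subunits of the kinase that activates phosphorylase, differed by 0.43 and 0.21 (adjusted p = 0.303 and 0.752).

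The Ppp1r3 genes encode subunits that bring protein phosphatase 1 to glycogen, where it activates the synthase. Ppp1r3b, the main liver subunit, had 11.90, 12.32, 11.73 and 12.24 in controls and 11.49, 11.36, 11.48 and 10.49 after DDE. Every DDE liver was below every control, with DDE 4 apart, and the difference of -0.84 did not pass (adjusted p = 0.156). Ppp1r3c differed by -0.57 with overlapping groups. Ppp1r3g had 7.44, 8.99, 7.45 and 8.82 in controls and 7.60, 9.32, 9.17 and 9.12 after DDE, which split both groups into livers near background and livers well above it (difference 0.63, adjusted p = 0.633).

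Other genes of the same routes gave no call. Of 40 further enzymes and transporters 0 passed (limma), and without adjustment p was under 0.05 for 8 higher and 7 lower genes, against 11.4% and 4.57% of all named genes. The median difference of this list was -0.08. Galm, the mutarotase that interconverts the alpha and beta forms of sugars, had the smallest p. Its signal was 10.30, 10.24, 9.87 and 9.45 in controls and 11.07, 10.93, 10.95 and 10.74 after DDE. These groups did not overlap, and the difference was 0.96 (adjusted p = 0.0513).

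Among 26 regulators of glucose metabolism 1 fell and 0 rose, against 0.774% and 2.58% of all named genes, and the median difference was 0.09. Without adjustment the limma p was under 0.05 for 3 higher and 2 lower genes, against 11.4% and 4.57% of all named genes. Irs2, an adaptor between the insulin receptor and its kinases, had 10.22, 10.78, 11.16 and 11.25 in controls and 9.04, 9.50, 9.33 and 8.55 after DDE. All DDE livers were below all controls, and Irs2 fell 3.36-fold (limma adjusted p = 0.0293). Mlxipl, the gene of the carbohydrate sensor ChREBP, which drives Pklr in liver, went from 13.31 ± 0.29 to 13.64 ± 0.41 and did not pass (difference 0.33, adjusted p = 0.604).

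The livers of a group differed from each other over many of these genes. Of the 33 genes above background on 4 or more arrays, control 2 had the highest value of its group in 17 and control 4 the lowest in 18, and control 3 the lowest in 11. In the DDE group, DDE 3 had the highest value in 14 and DDE 4 the lowest in 12. The median SD of a gene was 0.33 among controls and 0.39 among DDE livers.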

How the data were processed

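Per the labels' protocols, total RNA of the 8 livers was labelled with Cy3. The authors deposited 1 table of normalized log2 signals for 42957 probes. For the scanner, background correction, normalization and filters, the method is not given in the sources used here. The values were used as deposited, and their precision is limited by 4 arrays per group.

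Probes were named through the annotation supplied with the data, in which 33009 probes had 1 gene symbol, 0 had several and the rest had none. Probe sequences, promoters and proteins were not used here. The array was presumably designed on reference mouse sequence, so Mus spretus transcripts may bind less well.

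Every probe was tested with limma 3.58.1 in R 4.3.3 (lmFit and eBayes, DDE against control, no covariate), two-sided, with Benjamini-Hochberg adjustment over all probes. The procedure was tested on simulated data. Background was the 0.95 quantile of 1634 receptor probes per array, with stained spots left out. Stained spots were those whose neighbourhood (7 rows, 5 columns) deviated from the probes' medians by over 0.3 in its median, in either direction. The position of a spot was inferred from its probe number, and no image was used. The members and lists were chosen with earlier results of these data known. Named were all 40 matched members and, of the related lists, the genes past the threshold and the smallest p of a list with none, while other genes were chosen after their values were seen.

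Alternatives were other scalings, filters, variance models, probe rules, a replicate block and leaving out arrays. The probe median was added after seeing the data.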

Additional observations from a re-analysis of the deposited data

Results flagged for a closer look

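In 8 of 80 groups of 4 livers, 1 liver stood apart from the other 3, its gap exceeding the 95% critical share of the group's range in Dixon's test, and chance flags about 1 in 20 groups. Of these values 3 lay on stained spots: Tpi1 in DDE 3 (15.28, others 14.21 to 14.32), Pkm in DDE 4 (8.67, others 7.03 to 7.21) and Pck2 in control 2 (11.39, others 7.03 to 7.24). The other 5 did not. Eno3 was lowest in control 4 (10.66, others 11.20 to 11.27). DDE 4 was lowest for Gys2 (13.19, others 13.35 to 13.36), Pygl (13.55, others 14.42 to 14.59) and Ppp1r3b (10.49, others 11.36 to 11.49), which all act on glycogen. Ppp1r3g was lowest in DDE 1 (7.60, others 9.12 to 9.32).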

How the results depend on the processing

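Each of the 40 genes was refitted under up to 21 alternatives, and 813 of 833 such values stayed on their side of the threshold. Most of these values belong to the 37 genes that had no call to lose. Of the others, 13 lost a call and 7 gained one, and 0 reversed a called direction. All 13 losses were in the called genes, of which Tkfc kept its call in 20 of 21 alternatives, Pfkl in 16 and Eno3 in 14. In 37 values of 10 genes without a call the sign changed, among them Pck2 and Pkm without stained spots. The number of probes called on the whole array, 1289, was 766 with 1 probe per gene, 775 with the mean and 763 with the median of a gene's probes, 511 with an intensity trend and robust variance, 2140 with array weights, 2018 without dim probes and 2593 with quantile normalization of the unstained spots. In that last fit 58% of the calls were higher against 78% as reported. Leaving out 1 array gave 332 to 1596. Of the genes described here, 2 were higher and 1 lower as reported, 5 and 2 without dim probes (adding Aldoc, Tpi1, Gys2 and Ldhb, with fewer probes to adjust over), and 1 and 1 without the most stained array of each group. Leaving out 1 array gave 1 to 2 higher and 0 to 1 lower. With the replicate number as a block, 9 probes of the array passed, with 0 of the 40 genes higher and 0 lower (adjusted p = 0.0657 for Tkfc, 0.117 for Pfkl and 0.12 for Eno3). The labels do not say what the number stands for, and it was not taken as a pairing because 1 of the 4 same-numbered pairs had no positive correlation of its deviations from the group means (0.348, 0.242, 0.209 and -0.119). Of the 8 arrays, 5 correlated best with the array of their own number in the other group. In both groups the stained share was lowest on the array numbered 1 (1.16% and 0.521%) and highest on the array numbered 4 (9.50% and 7.59%), with arrays 2 and 3 in the same order between them. The cause of these differences was not tested. Signal near background limits Pfkp, Eno2, Pck2, Hk2, Hk3, Pkm, Pfkfb2 and, in some livers, Ppp1r3g. Signal near the top limits Gapdh, Ldha, Khk and Fbp1.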

Other observations

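The genes in this paragraph were chosen after their values were seen, and none passed the test. The pyruvate dehydrogenase kinases switch off the entry of pyruvate into the mitochondrial cycle, and whether their genes differ from each other after DDE was not tested. Pdk2 had 9.68, 8.75, 8.85 and 8.80 in controls, the first on a stained spot, and 10.25, 10.59, 10.51 and 9.67 after DDE (difference 1.23, limma adjusted p = 0.0714). Pdk1 had 8.97 to 9.85 in controls and 10.07 to 10.50 after DDE (0.88, adjusted p = 0.114). Pdk4, the form that rises in fasting, had 9.03, 9.21, 8.45 and 8.46 in controls and 8.22, 8.23, 8.12 and 8.21 after DDE (-0.59, adjusted p = 0.167). For Pdk1 every DDE liver was above every control, and for Pdk4 every DDE liver was below, while the Pdk2 groups overlapped.

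Ppargc1a, a coactivator of gluconeogenic genes, had 9.01, 8.99, 9.09 and 10.31 in controls, the last on a stained spot, and 8.46, 8.39, 8.21 and 8.08 after DDE (-1.06, limma adjusted p = 0.134). Hif1a, which drives many glycolytic genes, had 8.53, 7.83, 8.03 and 7.79 in controls and 9.09, 8.61, 8.64 and 8.59 after DDE (0.69, adjusted p = 0.13). Gsk3a, a kinase that inhibits glycogen synthase, went from 10.44 ± 0.32 to 11.33 ± 0.35 (0.89, adjusted p = 0.0915). In all 3 genes the groups did not overlap.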
